A study of Mus musculus with 3 samples.

Results

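The genes described here were the CCN matrix proteins Cyr61, Ctgf, Nov, Wisp1 and Wisp2 and the YAP/TEAD transcription machinery represented by Yap1, Wwtr1, Tead1, Tead2 and Amotl2. They were taken by their symbols from a list of names, and all 10 were found among the 23284 gene symbols of each file. RNA-seq had been made from sorted digit cells of C57/bl6 mouse embryos, at the stages when digit joints are laid down, in 3 libraries. The Lgr5+ library held GFP-positive cells, labelled interzone (the band of cells at a future joint), from forelimb digits of Lgr5-eGFPCreERT2/+ embryos at E14.5 (embryonic days are written with an E). The Lgr5− library held the GFP-negative cells, labelled non-interzone, of forelimb digits of the same genotype and day. The Sox9+ library held cells sorted from developing digits of Sox9-eGFP/+ embryos at E13.5, and its labels do not name the limb. Cells were chosen by reporter fluorescence and not by position, and the number of embryos behind each library is not given in the sources used here.

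CCN proteins are secreted, modular matrix proteins that bind integrins, proteoglycans and growth factors, and Ctgf and Cyr61 are known for roles in cartilage growth and limb skeletal development. YAP (from Yap1) and TAZ (from Wwtr1) are transcriptional coactivators that bind TEAD factors on DNA. The Hippo kinases hold them in the cytoplasm, while cell spreading and matrix stiffness favour their entry into the nucleus. Cyr61, Ctgf and Amotl2 are among the best known YAP/TEAD target genes. YAP and TAZ are regulated largely by phosphorylation and localisation, which RNA levels do not measure.

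TEAD factors recognise the sequence GGAATG, or CATTCC on the other strand, and these letters were looked for in the 250 bases upstream of the annotated start sites in RefSeq (GRCm38.p6). Promoter sequences were matched for 5 of the 10 genes (Cyr61, Yap1, Wwtr1, Tead2 and Amotl2) and not for Ctgf, Nov, Wisp1, Wisp2 and Tead1. The Cyr61 promoter is shown because Cyr61 was the most abundant of the 10 genes, and capitals mark the TEAD letters. It is the minus strand of chr3:145649986-145650235, read 5′ to 3′ towards the gene.
Cyr61: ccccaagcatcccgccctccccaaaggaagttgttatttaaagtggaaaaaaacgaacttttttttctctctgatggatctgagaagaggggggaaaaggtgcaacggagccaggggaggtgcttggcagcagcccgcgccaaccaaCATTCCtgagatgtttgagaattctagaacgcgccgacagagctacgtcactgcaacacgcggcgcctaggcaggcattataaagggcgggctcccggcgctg

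The same letters occurred once each upstream of Amotl2, Yap1 and Wwtr1, and these sites are shown for comparison with 12 bases on either side. The Amotl2 stretch is the plus strand of chr9:102717727-102717756, the Yap1 stretch the minus strand of chr9:8004720-8004749 and the Wwtr1 stretch the minus strand of chr3:57576029-57576058.
Amotl2: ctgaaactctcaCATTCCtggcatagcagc
Yap1: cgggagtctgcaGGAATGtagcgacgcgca
Wwtr1: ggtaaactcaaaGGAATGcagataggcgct

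The TEAD letters began 103 bases upstream of the start site in Cyr61, 65 bases upstream in Amotl2, 141 bases upstream in Yap1, and 136 and 170 bases upstream of the 2 start sites annotated for Wwtr1. The Amotl2 match lies within an exon of other annotated Amotl2 transcripts. No match was found in the Tead2 window. Of 32851 promoter windows of this length, 12.6% held the letters on either strand, and of 27025 genes with a window 14.4% had at least 1 that did. The 4 of 5 matched genes are a description of a small set picked by name. The Cyr61 promoter also held a TATA box (TATAAA, searched on both strands), which began 25 bases upstream and occurs in 12.4% of all windows. The core of a heat shock element (TTCNNGAA, its own reverse complement) began 82 bases upstream of the Cyr61 start, did not overlap the TEAD letters, and occurs in 7.17% of all windows. That motif was searched for after the expression values had been seen. A match in these letters is not evidence of binding.

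Values are FPKM (sequenced fragments per unit of transcript length and per unit of library size), which can be set side by side between genes because they are per length. The libraries were of similar breadth, with 11924 to 12002 genes at 1 FPKM or more and FPKM sums of 534025 to 593871. The ribosomal RNA precursor Rn45s took 1.86% to 6.43% of the sum and was lowest in Lgr5+ cells. Sox9 stood at 332 FPKM in Lgr5+ cells, 147 in Lgr5− cells and 255 in Sox9+ cells, and the joint gene Gdf5 at 615 FPKM in Lgr5+ cells, 71.7 in Lgr5− cells and 59.9 in Sox9+ cells. Markers of other cell types were present in all libraries. The summed level of 10 muscle genes was 103 FPKM in Lgr5+ cells, 27.1 in Lgr5− cells and 19.0 in Sox9+ cells, and that of 10 macrophage genes was 104 FPKM in Lgr5+ cells, 60.7 in Lgr5− cells and 14.47 in Sox9+ cells. Summed levels of 10 endothelial genes were 23.6 FPKM in Lgr5+ cells, 27.8 in Lgr5− cells and 15.2 in Sox9+ cells, none of them at 0. Those of 10 epidermal genes were 57.8 FPKM in Lgr5+ cells, 25.5 in Lgr5− cells and 63.9 in Sox9+ cells, and those of 6 Schwann cell genes 15.0 FPKM in Lgr5+ cells (with Foxd3 at 0), 9.88 in Lgr5− cells and 34.6 in Sox9+ cells. Of 7 tendon genes, 6 were called higher in Lgr5+ than in Sox9+ cells, where 4.33% of all measured genes were. In Lgr5− relative to Sox9+ cells 4 were called higher, where 3.08% of all measured genes were. The 7 genes summed to 1202 FPKM in Lgr5+ cells, 870 in Lgr5− cells and 1314 in Sox9+ cells. Egr1, also an immediate early gene, supplied 603 FPKM of this in Lgr5+ cells, 669.5 in Lgr5− cells and 1221 in Sox9+ cells. It was the 1 tendon gene called lower in Lgr5+ than in Sox9+ cells. The haemoglobin gene Hba-a1, named after its values were seen, had 66.6 FPKM in Lgr5+ cells, 2043 in Lgr5− cells and 23.0 in Sox9+ cells. The part of these cell types in the values of the 10 genes was not tested. A value given for Lgr5+, Lgr5− or Sox9+ cells is that of their single library. With 1 library per group no error, test or p-value can be given, each difference lies between libraries rather than conditions, and the depth of the libraries is unknown.

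The 10 genes covered a wide range of levels. Cyr61 was the most abundant in every library, ranking 199th of all genes in Lgr5+ cells, 159th in Lgr5− cells and 32nd in Sox9+ cells. Amotl2, Tead2 and Ctgf lay below it at 32.8 to 426 FPKM, Yap1 and Wwtr1 near 20 FPKM, and Wisp1 and Tead1 at a few FPKM. Nov and Wisp2 stayed under 1 FPKM everywhere, so 8 of the 10 genes passed the minimum of 1 FPKM in the higher library of a pair. Differences are given as log2 ratios of FPKM + 1 and called at 2-fold or more. Folds are computed from the same FPKM + 1 values and come out too small for weakly expressed genes.

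**Figure D1:**
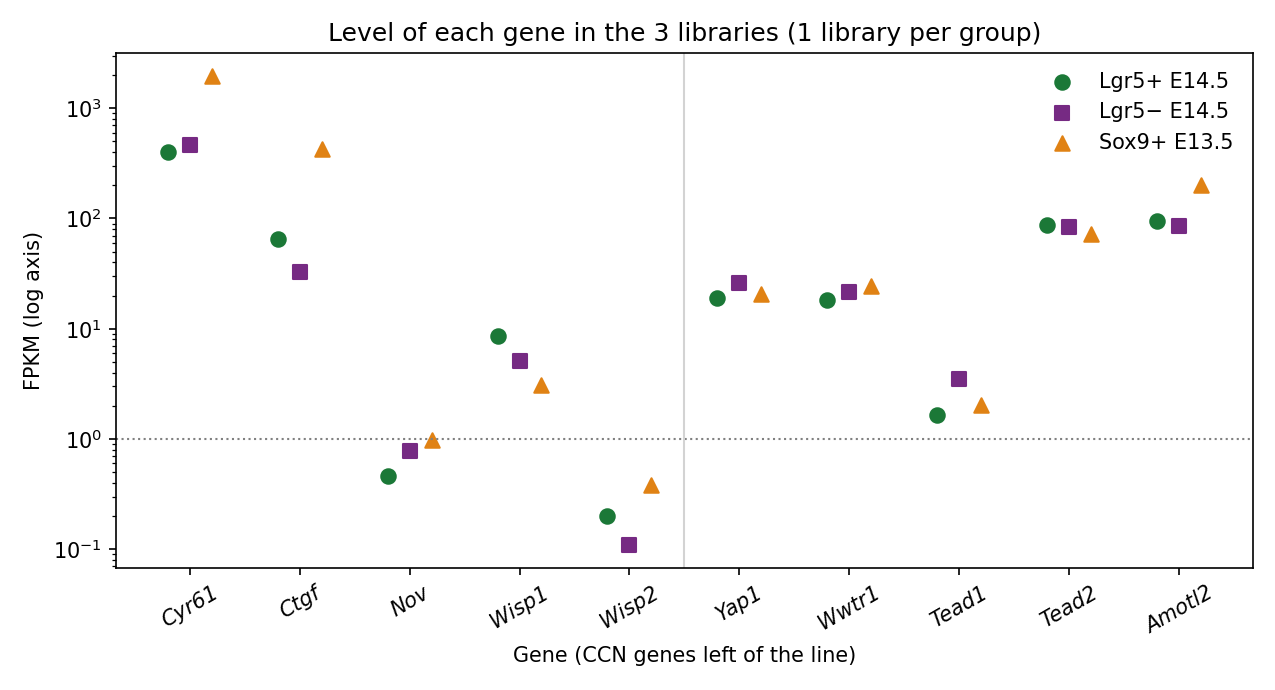
FPKM on a log axis for the 10 genes (x axis) in the Lgr5+ (circles), Lgr5− (squares) and Sox9+ (triangles) libraries, 1 point per library, with a dotted line at 1 FPKM. The triangles of Cyr61 (1943 FPKM), Ctgf (426 FPKM) and Amotl2 (202 FPKM) lie well above the other symbols, while the points of Yap1, Wwtr1 and Tead2 lie close together.

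Among the CCN genes, Cyr61 and Ctgf made up at least 98.0% of the summed level of the 5 described here in each library. The remaining family gene, Wisp3, is not in this sum. Both Cyr61 and Ctgf were far lower in the E14.5 libraries than in Sox9+ cells. Cyr61 encodes CCN1, an integrin-binding protein that is induced within minutes to hours of stimulation (GRCm38 chromosome 3, 145646976 to 145649981, minus strand, protein-coding). It stood at 397 FPKM in Lgr5+ cells, 464 in Lgr5− cells and 1943 in Sox9+ cells. It was thus 4.89-fold lower in Lgr5+ cells and 4.18-fold lower in Lgr5− cells than in Sox9+ cells, with log2 ratios of −2.29 and −2.06. The E14.5 libraries differed from each other by 1.17-fold, with the Lgr5+ library the lower. Cyr61 alone accounted for 0.0743% of all FPKM in Lgr5+ cells, 0.0849% in Lgr5− cells and 0.327% in Sox9+ cells.

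Ctgf encodes CCN2, a matricellular protein that chondrocytes and fibroblasts secrete (chromosome 10, 24595442 to 24598683, plus strand, protein-coding). It stood at 65.2 FPKM in Lgr5+ cells, 32.8 in Lgr5− cells and 426 in Sox9+ cells, so all 3 libraries lay apart. Its log2 ratio to Sox9+ cells was −2.69 (6.45-fold lower) in Lgr5+ cells and −3.66 (12.6-fold lower) in Lgr5− cells. Of the 10 genes it had the widest spread between libraries. Ctgf was also the CCN gene that most separated the E14.5 libraries, at 1.96-fold higher in Lgr5+ cells than in Lgr5− cells, just inside the 2-fold limit. Rescaling to TPM (each library brought to the same sum) moved that log2 ratio past the limit, to 1.01 against 0.97. The ratio of Cyr61 to Ctgf levels was 6.09 in Lgr5+ cells, 14.2 in Lgr5− cells and 4.57 in Sox9+ cells.

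Wisp1, which encodes CCN4 and is a Wnt-responsive gene of mesenchyme and early bone-forming cells (chromosome 15, 66891320 to 66923201, plus strand), ran the other way. It stood at 8.68 FPKM in Lgr5+ cells, 5.11 in Lgr5− cells and 3.08 in Sox9+ cells. Its level was 2.37-fold higher in Lgr5+ than in Sox9+ cells, 1.58-fold higher in Lgr5+ than in Lgr5− cells, and 1.5-fold higher in Lgr5− than in Sox9+ cells. The first of these fell inside 2-fold with a pseudocount of 5 FPKM, at a log2 ratio of 0.76 against 1.25.

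Nov, which encodes CCN3 (chromosome 15, 54745702 to 54754039, plus strand), was barely detected, at 0.46 FPKM in Lgr5+ cells, 0.78 in Lgr5− cells and 0.98 in Sox9+ cells. Wisp2, which encodes CCN5, the family member that lacks the C-terminal cystine knot domain (chromosome 2, 163820861 to 163833146, plus strand), had 0.2 FPKM in Lgr5+ cells, 0.11 in Lgr5− cells and 0.38 in Sox9+ cells. Wisp3, the remaining gene of the family, stood at 0.4 FPKM in Lgr5+ cells, 0.41 in Lgr5− cells and 1.37 in Sox9+ cells. At such levels no order of the libraries can be read. CCN expression in these digit cells was carried by 2 genes at high level and 1 at low level.

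**Figure D2:**
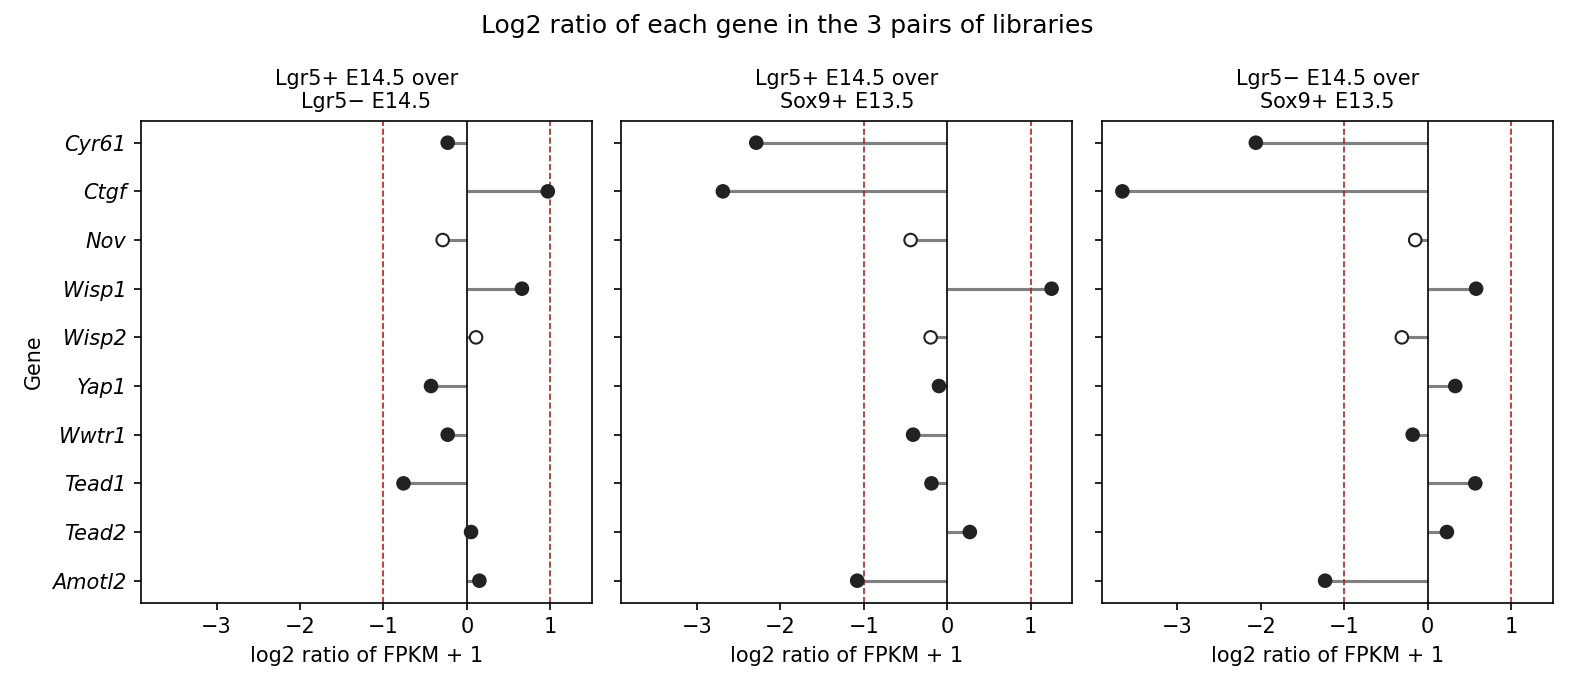
Log2 ratios of FPKM + 1 (x axis) for the 10 genes (y axis) in the 3 pairs of libraries, with dashed lines at 2-fold and open points for genes under 1 FPKM in both libraries. No point passes 2-fold between the Lgr5+ and Lgr5− libraries, whereas Cyr61, Ctgf and Amotl2 lie beyond 2-fold lower in both E14.5 populations relative to Sox9+ cells and Wisp1 lies beyond 2-fold higher in Lgr5+ relative to Sox9+ cells.

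Amotl2, which encodes an angiomotin-like scaffold of cell junctions that binds YAP and is itself a YAP target (chromosome 9, 102716672 to 102733418, plus strand), shared the direction of Cyr61 and Ctgf with a smaller difference. It stood at 95.1 FPKM in Lgr5+ cells, 85.6 in Lgr5− cells and 202 in Sox9+ cells. The difference from Sox9+ cells was 2.11-fold lower in Lgr5+ cells and 2.34-fold lower in Lgr5− cells. After rescaling to TPM the first of these lay inside 2-fold, with a log2 ratio of −0.93 against −1.08. The E14.5 libraries differed by 1.11-fold.

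The highest library exceeded the lowest by at most 1.34-fold for Yap1, Wwtr1 and Tead2, against 2.34-fold or more for the targets Cyr61, Ctgf and Amotl2. For the weakly expressed Tead1 it was 1.7-fold. Without the added 1 FPKM the ratio was 2.12 for Tead1, near the 2.36 for Amotl2. Yap1 (chromosome 9, 7931999 to 8004596, minus strand) had 19.1 FPKM in Lgr5+ cells, 26.0 in Lgr5− cells and 20.5 in Sox9+ cells. Wwtr1, the gene of TAZ (chromosome 3, 57455649 to 57575910, minus strand), had 18.3 FPKM in Lgr5+ cells, 21.7 in Lgr5− cells and 24.6 in Sox9+ cells. Both were lowest in Lgr5+ cells, except that with TPM the Yap1 log2 ratio of Lgr5+ to Sox9+ cells was 0.05 against −0.1 as deposited. The ratio of Yap1 to Wwtr1 levels was 1.04 in Lgr5+ cells, 1.2 in Lgr5− cells and 0.832 in Sox9+ cells.

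Tead2, a TEAD factor of the early embryo (chromosome 7, 45215753 to 45233644, plus strand), was the leading TEAD gene, at 86.8 FPKM in Lgr5+ cells, 84.0 in Lgr5− cells and 71.6 in Sox9+ cells. It made up 90.6% of the summed level of the 4 TEAD genes in Lgr5+ cells, 86.6% in Lgr5− cells and 88.4% in Sox9+ cells. Its difference between the E14.5 libraries, a log2 ratio of 0.05, changed sign under median-of-ratios, upper-quartile and quantile scaling. Its differences from Sox9+ cells, 0.27 in Lgr5+ cells and 0.23 in Lgr5− cells on the log2 scale, kept their sign under all 7 alternative settings.

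Tead1, a TEAD factor better known from heart and skeletal muscle (chromosome 7, 112679318 to 112906807, plus strand), was low, at 1.65 FPKM in Lgr5+ cells, 3.5 in Lgr5− cells and 2.03 in Sox9+ cells. It was highest in Lgr5− cells and 1.7-fold lower in Lgr5+ cells. With a pseudocount of 0.1 FPKM this difference passed 2-fold, at a log2 ratio of −1.04 against −0.76. The muscle genes given above were highest in Lgr5+ cells, where Tead1 was lowest, and their part in the Tead1 values was not tested.

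Of the other TEAD genes, Tead3 stood at 7.18 FPKM in Lgr5+ cells, 9.27 in Lgr5− cells and 6.76 in Sox9+ cells. Tead4 stayed under 1 FPKM in all 3. Vgll4, a cofactor that competes with YAP for TEAD, was more abundant than Yap1 and Wwtr1 together, at 122 FPKM in Lgr5+ cells, 99.97 in Lgr5− cells and 85.0 in Sox9+ cells. The ratio of Vgll4 to the sum of Yap1 and Wwtr1 was 3.25 in Lgr5+ cells, 2.1 in Lgr5− cells and 1.88 in Sox9+ cells. Vgll3, another TEAD cofactor, stood at 3.05 FPKM in Lgr5+ cells, 1.07 in Lgr5− cells and 1.84 in Sox9+ cells. Vgll2 had 1.73 FPKM in Lgr5+ cells, 1.28 in Lgr5− cells and 0.89 in Sox9+ cells, and Vgll1 was listed at 0 in both E14.5 libraries.

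**Figure D3:**
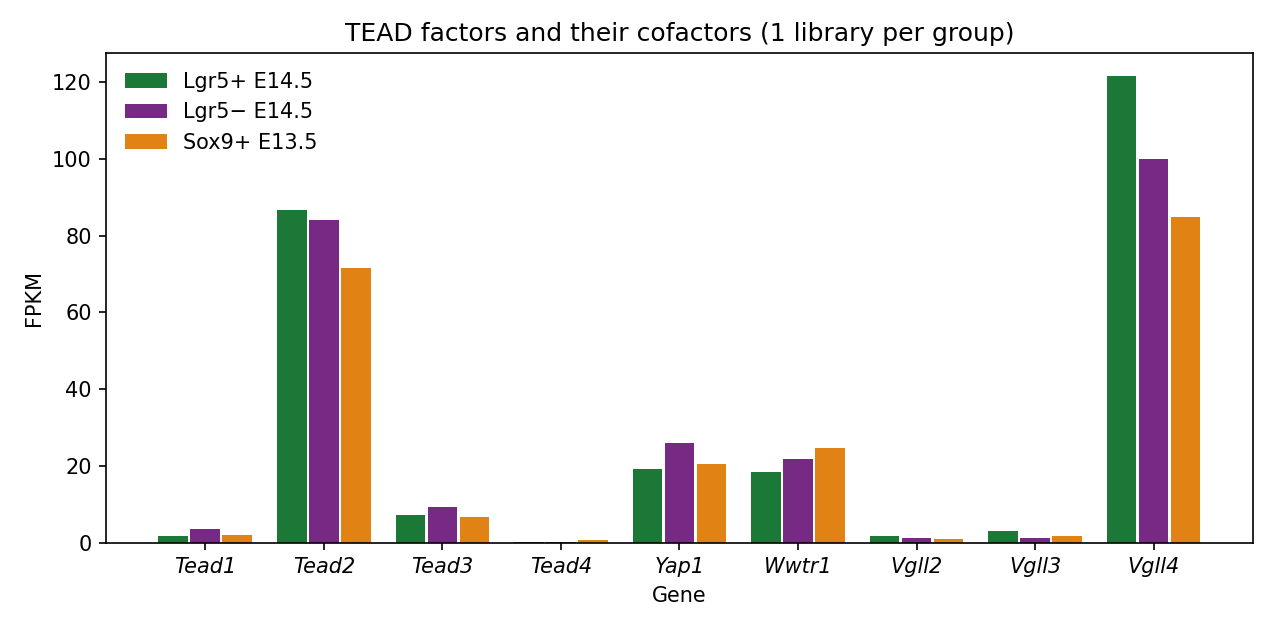
FPKM (y axis, from 0) of TEAD genes, Yap1, Wwtr1 and Vgll cofactors (x axis) in the Lgr5+, Lgr5− and Sox9+ libraries, 1 bar per library. Tead2 (71.6 to 86.8 FPKM) and Vgll4 (85.0 to 122 FPKM) stand above the other genes in each library.

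Counted over all 10 genes, none was called between the Lgr5+ and Lgr5− libraries, where 5.53% of 12438 measured genes were called, 3.64% higher and 1.89% lower. The median log2 ratio of the 10 genes was −0.09, against 0.079 over all measured genes. In Lgr5+ relative to Sox9+ cells 3 genes were called lower (Cyr61, Ctgf and Amotl2), where 3.96% of 12492 measured genes were, and 1 was called higher (Wisp1), where 4.33% were. The median of the 10 was −0.31, against 0.063 over all measured genes. In Lgr5− relative to Sox9+ cells the same 3 genes were called lower, where 4.94% of 12482 measured genes were, and none was called higher, where 3.08% were. The median of the 10 was −0.16, against −0.0062 over all measured genes. In this pair the median was −0.31 for the 5 CCN genes and 0.23 for Yap1, Wwtr1, Tead1, Tead2 and Amotl2. Each median of the 10 includes Nov and Wisp2, which were under 1 FPKM and are not among the measured genes. The medians of the 10 are therefore not strictly comparable with those of all measured genes. The 3 comparisons share libraries, so the calls against the Sox9+ library are not independent of each other.

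The ratios of Cyr61 and Ctgf to Sox9+ cells were among the lowest of all measured genes. In the Lgr5+ library 59 of 12492 measured genes had a log2 ratio as low as that of Cyr61 and 40 as low as that of Ctgf. In the Lgr5− library these numbers were 84 and 24 of 12482. Amotl2 was less extreme, with 422 and 380 genes at or below its ratio. Of the 973 genes at 100 FPKM or more in the higher library of the Lgr5+ and Sox9+ pair 6.68% were called lower, as were 9.74% of 934 in the Lgr5− and Sox9+ pair. Rescaling to TPM moved the median of all measured genes in these pairs to 0.21 and 0.11 on the log2 scale. The share of calls that were higher became 64.8% against 52.2% as deposited for the Lgr5+ and Sox9+ libraries and 52.3% against 38.4% for the Lgr5− and Sox9+ libraries. Under that scaling the log2 ratios to Sox9+ cells were −2.14 for Cyr61 and −2.54 for Ctgf in Lgr5+ cells.

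Few of the Hippo pathway genes upstream of YAP and TAZ passed 2-fold. Of 29 such genes in the files, all measured, 0 were called between either E14.5 library and the Sox9+ library, and 1 was called lower in Lgr5+ than in Lgr5− cells. Over all measured genes the shares called in either direction were 8.29% (Lgr5+ and Sox9+ cells), 8.02% (Lgr5− and Sox9+ cells) and 5.53% (Lgr5+ and Lgr5− cells), so counts this low in 29 genes are not particular to the list. The gene called was Fat1, a giant protocadherin, at 8.6 FPKM in Lgr5+ cells against 19.0 FPKM in Lgr5− cells. The median log2 ratio of the 29 lay between −0.03 and 0.07 in the 3 pairs. The core kinase gene Stk3 stood at 21.7 FPKM in Lgr5+ cells, 19.4 in Lgr5− cells and 18.3 in Sox9+ cells. Lats2, a YAP kinase gene that is itself a YAP target, stood at 26.9 FPKM in Lgr5+ cells, 24.3 in Lgr5− cells and 38.8 in Sox9+ cells, 1.43-fold lower in Lgr5+ cells and 1.58-fold lower in Lgr5− cells than in Sox9+ cells.

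Other genes of a YAP/TAZ target signature, which was defined in human cancers and also holds Lats2 and Ptpn14 of the Hippo list, did not share 1 direction. Of 18 measured in the Lgr5+ and Sox9+ pair, 3 were called lower in Lgr5+ cells (F3, Gadd45a and Nuak2) and 4 higher (Myof, Ccdc80, Nt5e and Tgfb2), where 3.96% of all measured genes were called lower and 4.33% higher. The median over the 19 genes was −0.25. F3, the gene of tissue factor, stood at 8.51 FPKM in Lgr5+ cells, 3.33 in Lgr5− cells and 30.5 in Sox9+ cells, the same order as Ctgf. Ankrd1, a muscle-expressed YAP target often measured beside Cyr61 and Ctgf, was low at 0.48 FPKM in Lgr5+ cells, 0.03 in Lgr5− cells and 1.91 in Sox9+ cells.

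Tgfb2, a TGF-beta ligand gene, was highest in Lgr5+ cells, where Cyr61 was lowest, with 120 FPKM in Lgr5+ cells, 27.4 in Lgr5− cells and 36.2 in Sox9+ cells. Ccdc80, a matrix protein gene, stood at 136 FPKM in Lgr5+ cells, 49.9 in Lgr5− cells and 46.1 in Sox9+ cells. In Lgr5− relative to Sox9+ cells 4 of the 19 genes were called lower (Ankrd1, F3, Gadd45a and Nuak2) and 1 higher (Foxf2, a forkhead factor gene of mesenchyme, at 20.2 FPKM in Lgr5− cells against 2.52 in Sox9+ cells), where 4.94% of all measured genes were lower and 3.08% higher. In Lgr5+ relative to Lgr5− cells 5 of 17 were called higher (Myof, F3, Ccdc80, Nt5e and Tgfb2) and 1 lower (Foxf2, at 2.85 FPKM in Lgr5+ cells against 20.2 in Lgr5− cells), where 3.64% of all measured genes were higher and 1.89% lower.

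**Figure D4:**
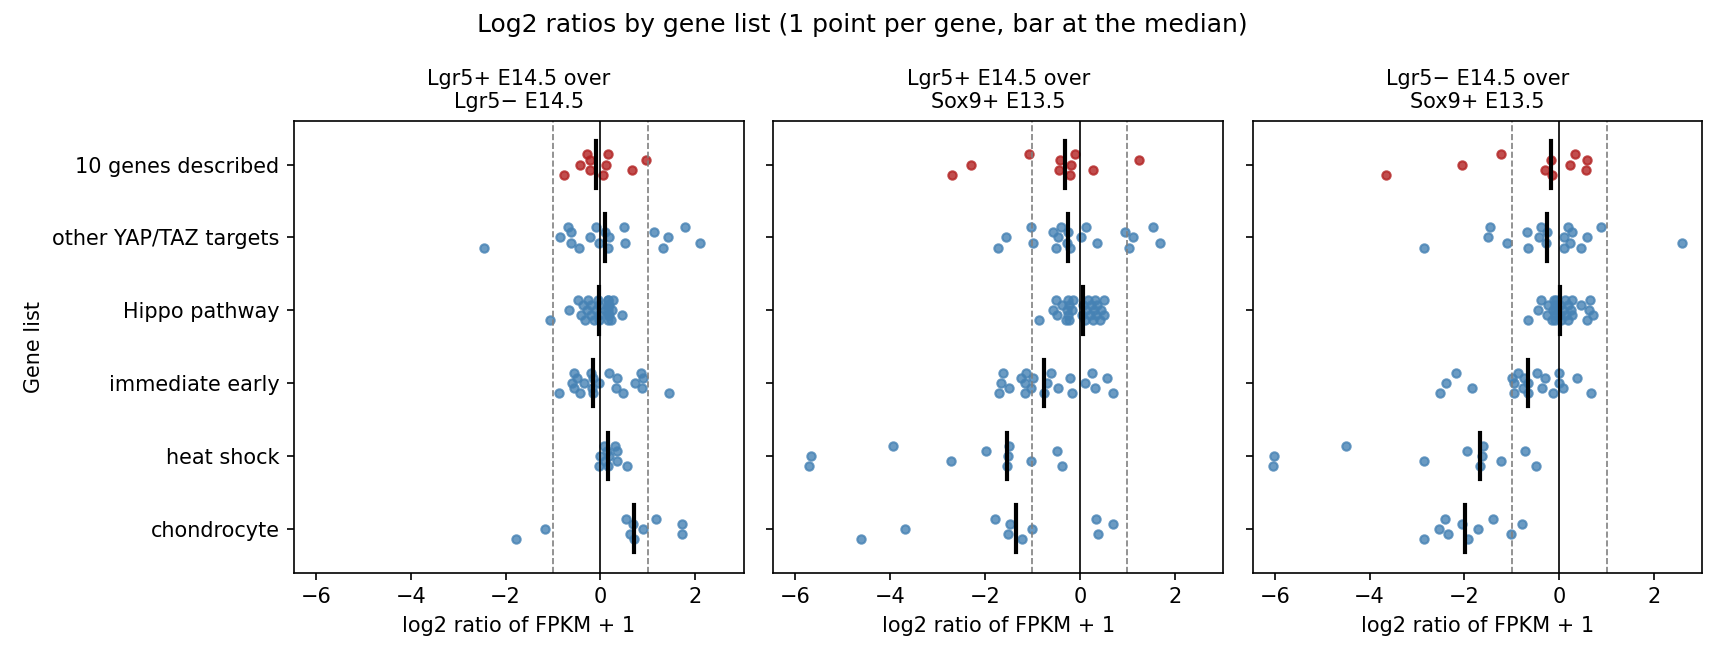
Log2 ratios of FPKM + 1 (x axis) for the 10 genes and for 5 gene lists (y axis) in the 3 pairs of libraries, 1 point per gene with a bar at the median and dashed lines at 2-fold. Hippo pathway genes cluster around 0 in every pair, while heat shock genes (medians −1.54 and −1.67) and chondrocyte genes (medians −1.35 and −1.99) lie lower in both E14.5 populations relative to Sox9+ cells.

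Most heat shock genes and some immediate early genes, a class to which Cyr61 also belongs, were likewise lower than in Sox9+ cells. Of 11 heat shock genes, 9 were called lower in Lgr5+ cells than in Sox9+ cells, where 3.96% of all measured genes were. In Lgr5− cells 9 were also called lower than in Sox9+ cells, where 4.94% of all measured genes were. Summed levels of the 11 genes were 3081 FPKM in Lgr5+ cells, 2839 in Lgr5− cells and 8613 in Sox9+ cells. Hspa1a, an inducible chaperone gene whose near-identical copy Hspa1b makes the split of reads uncertain, stood at 20.2 FPKM in Lgr5+ cells, 16.1 in Lgr5− cells and 1116 in Sox9+ cells. Of 21 immediate early genes, 9 were called lower in Lgr5+ cells and 5 in Lgr5− cells than in Sox9+ cells. The shares over all measured genes were the same 3.96% and 4.94%. Summed levels of the 21 genes were 5789 FPKM in Lgr5+ cells, 5426 in Lgr5− cells and 6967 in Sox9+ cells. Atf3, a stress-induced transcription factor gene, stood at 55.3 FPKM in Lgr5+ cells, 39.8 in Lgr5− cells and 184 in Sox9+ cells, and Myc at 55.7 FPKM in Lgr5+ cells, 29.3 in Lgr5− cells and 172 in Sox9+ cells. Fos stood at 590 FPKM in Lgr5+ cells, 891 in Lgr5− cells and 893 in Sox9+ cells, lower in Lgr5+ cells and level between the Lgr5− and Sox9+ libraries. Junb, at 1073 FPKM in Lgr5+ cells, 1106 in Lgr5− cells and 852 in Sox9+ cells, did not share the direction of Cyr61 relative to Sox9+ cells. The part of dissociation stress in the Cyr61 and Ctgf values was not tested.

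Most cartilage genes were also lower than in Sox9+ cells, as Ctgf was. Of 10 chondrocyte markers, 7 were called lower in Lgr5+ cells than in Sox9+ cells, where 3.96% of all measured genes were. In Lgr5− cells 9 were called lower than in Sox9+ cells, where 4.94% of all measured genes were. Summed levels of the 10 markers were 3266 FPKM in Lgr5+ cells, 2032 in Lgr5− cells and 7646 in Sox9+ cells. None of these markers was at 0 in any library. Hapln1, which encodes a link protein of cartilage matrix, stood at 38.1 FPKM in Lgr5+ cells, 20.1 in Lgr5− cells and 107 in Sox9+ cells, the same order of libraries as Ctgf. Matn1, a cartilage matrix protein gene, had the other order of the E14.5 libraries, at 41.5 FPKM in Lgr5+ cells, 93.8 in Lgr5− cells and 546 in Sox9+ cells, as did Comp at 3.9 FPKM in Lgr5+ cells, 15.8 in Lgr5− cells and 120 in Sox9+ cells. Of the 10 markers, 3 were called higher (Sox9, Sox5 and Sox6) and 2 lower (Matn1 and Comp) in Lgr5+ than in Lgr5− cells. Over all measured genes 3.64% were called higher and 1.89% lower in that pair. In bulk samples fewer cells of a type and less RNA per cell cannot be told apart, and the part of chondrocyte content in the Ctgf values was not tested. Age, reporter line and sort differ together between the E14.5 libraries and the Sox9+ library and cannot be told apart.

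Most of the listed receptor genes through which CCN proteins are known to act were expressed in the 3 libraries. The integrin chain genes Itgb3, Itgam and Itgb2 stayed under 1 FPKM in every library. None of the 10 measured of 13 listed was called in any pair, where 5.53% (Lgr5+ and Lgr5− cells), 8.29% (Lgr5+ and Sox9+ cells) and 8.02% (Lgr5− and Sox9+ cells) of all measured genes were called in either direction. Itgb1, the shared beta chain of many integrins, stood at 97.1 FPKM in Lgr5+ cells, 92.4 in Lgr5− cells and 113 in Sox9+ cells. Itgav, the alpha chain that binds Cyr61 and Ctgf, stood at 5.39 FPKM in Lgr5+ cells, 9.39 in Lgr5− cells and 11.0 in Sox9+ cells, lowest in Lgr5+ cells. Itga5, the alpha chain of the fibronectin receptor, stood at 52.7 FPKM in Lgr5+ cells, 29.8 in Lgr5− cells and 31.7 in Sox9+ cells, highest in Lgr5+ cells.

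The genes with the pattern closest to each called gene were found by Euclidean distance over the 3 log2 ratios, among 7033 genes at 10 FPKM or more in the highest library. Only 3 libraries enter this measure, so near matches are easily found. Closest to Cyr61 were Spp1, Pltp and Lgals3 (distances 0.13 to 0.18), all far less abundant than Cyr61. Spp1 stood at 2.13 FPKM in Lgr5+ cells, 2.5 in Lgr5− cells and 14.7 in Sox9+ cells. The added 1 FPKM shrinks the ratios of such weak genes, so distances between genes of unlike level depend on it. Closest to Ctgf were Cxcl1, Chac1 and 3110079O15Rik, at larger distances on this measure (0.34 to 0.68). Closest to Wisp1 were Fam59a, Postn and Matn2 (0.044 to 0.078), and closest to Amotl2 were Fgfr3, Hspa8 and Asrgl1 (0.034 to 0.066). Postn, the matrix protein periostin, stood at 82.0 FPKM in Lgr5+ cells, 52.9 in Lgr5− cells and 35.5 in Sox9+ cells.

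Annotated overlaps limit some values, since the library kit does not mark strand. Ctgf, Yap1 and Tead1 overlap non-coding transcripts on the opposite strand, and Wwtr1 overlaps a processed pseudogene there. Tead2 overlaps the leukocyte gene Cd37 on the opposite strand, which stood at 0.51 FPKM in Lgr5+ cells, 1.42 in Lgr5− cells and 0.07 in Sox9+ cells, small beside Tead2. Cyr61, Nov, Wisp1, Wisp2 and Amotl2 overlap no other annotated gene.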

How the data were processed

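RNA-seq had been made from 3 sorted cell populations, 1 library each, using a SMARTer low-input kit on 10 ng RNA, per the labels' protocols. The authors deposited 1 FPKM value per gene symbol, rounded to 2 decimals. Per the submitters' processing notes, HISAT2 and the build mm10 (GRCm38) are listed. No source used here names the quantification tool or annotation. FPKM are shares of a library, so abundant RNAs can shift all others, and the files hold no counts, so depth is unknown. Log2 ratios of FPKM + 1 were computed in the 3 pairs of libraries, for genes reaching 1 FPKM in either library of the pair, and called at 2-fold. The calling code was checked on simulated data with little noise, which does not measure the spread between real libraries. The 10 genes and the gene lists were chosen with earlier results of these data known. The rule for named genes covered all 10 genes, listed genes past 2-fold, and the 3 genes nearest in pattern to each called gene; further listed genes were picked after their values were seen. The summed level of the red blood cell markers is not reported here. Older symbols were matched through RefSeq, which left 1 of 31 listed Hippo names without a row and merged 1 duplicate. Gene spans come from GENCODE M21 and promoters from RefSeq, both GRCm38. Alternatives were other pseudocounts (0.1 and 5), minimums (none and 10 FPKM) and 5 scalings. Python 3.11.15, pandas 2.3.3 and NumPy 2.4.6 were used.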

Additional observations from a re-analysis of the deposited data

How the results depend on the processing

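The log2 ratios of the 10 genes in the 3 pairs, under 7 alternatives of pseudocount and scaling, kept their direction and their call in 202 of 210 values. Wisp2 in the Lgr5− over Sox9+ pair is counted among them: it reached −1.19 with a pseudocount of 0.1 (−0.31 as deposited), but stayed under the minimum of 1 FPKM and so uncalled. The exceptions to the calls or directions were 2 that fell inside 2-fold (Amotl2 with TPM, −0.93, and Wisp1 with a pseudocount of 5 FPKM, 0.76, both in the Lgr5+ over Sox9+ pair), 2 that were newly called between the Lgr5+ and Lgr5− libraries (Ctgf with TPM, 1.01, and Tead1 with a pseudocount of 0.1 FPKM, −1.04) and 4 small differences that turned (Tead2 between the Lgr5+ and Lgr5− libraries at −0.03 with median of ratios, −0.07 with upper quartile and −0.08 with quantile normalization, and Yap1 between the Lgr5+ and Sox9+ libraries at 0.05 with TPM). Cyr61 ranged from −2.37 to −2.14 and Ctgf from −2.77 to −2.54 in the Lgr5+ over Sox9+ pair, and from −2.06 to −1.87 and −3.69 to −3.49 in the Lgr5− over Sox9+ pair. Between the Lgr5+ and Lgr5− libraries the number of the 10 genes called higher became 1 with TPM (0 as deposited) and the number called lower became 1 with a pseudocount of 0.1 (0 as deposited). In the Lgr5+ over Sox9+ pair the number called higher became 0 with a pseudocount of 5 and with a minimum of 10 FPKM, which Wisp1 does not reach.

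Over all genes, counts moved by over 1.5 times mainly with the treatment of low values. TPM sums are larger than the FPKM sums, so the same pseudocount and minimum weigh less under that scaling. In the Lgr5+ and Lgr5− pair 13427 genes were measured with TPM, against 12438 as deposited. Higher in the Lgr5+ than in the Lgr5− library were 453 genes, against 694 with a pseudocount of 0.1, 202 with 5 and 242 with a minimum of 10 FPKM, and lower were 235, against 458, 81 and 115, and 355 with TPM. Higher in the Lgr5+ than in the Sox9+ library were 541, against 900, 193 and 273, and 981 with TPM, and lower were 495, against 785, 193 and 257. Higher in the Lgr5− than in the Sox9+ library were 384, against 721, 139 and 180, and 706 with TPM, and lower were 617, against 958, 273 and 369. Dropping the minimum changed no count, because 2-fold with a pseudocount of 1 needs at least 1 FPKM. No paired analysis was possible because each group has 1 library. Unknown depth limits the low genes Nov, Wisp2 and Tead1 most.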

Other observations

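Serum response factor (SRF) and its coactivators control another set of genes that respond to tension and the actin cytoskeleton, and Cyr61 and Ctgf are known to respond to this pathway too. The 18 genes listed for this pathway include Srf itself and its coactivator genes Mkl1 and Mkl2. Of the 18, 1 was called higher (Acta2) and 0 lower in Lgr5+ cells than in Sox9+ cells, with a median log2 ratio of −0.06. Over all measured genes 4.33% were called higher and 3.96% lower in that pair. In Lgr5− relative to Sox9+ cells 1 was called higher (Myl9) and 2 lower (Cnn1 and Fhl2), with a median of −0.12, where 3.08% of all measured genes were higher and 4.94% lower. In Lgr5+ relative to Lgr5− cells 4 were called higher (Acta2, Tagln, Cnn1 and Zyx) and 0 lower, where 3.64% and 1.89% of all measured genes were, although the median of the 18 was −0.15. Zyx, a focal adhesion protein gene, stood at 111 FPKM in Lgr5+ cells, 54.1 in Lgr5− cells and 87.5 in Sox9+ cells. Acta2, the smooth muscle actin gene, was at 10.2 FPKM in Lgr5+ cells, 3.18 in Lgr5− cells and 2.64 in Sox9+ cells. The skeletal muscle markers Des (9.33 FPKM in Lgr5+ cells, 1.61 in Lgr5− cells and 1.17 in Sox9+ cells) and Myod1 (8.77 FPKM in Lgr5+ cells, 1.69 in Lgr5− cells and 0.46 in Sox9+ cells) were also highest in Lgr5+ cells, and their part in the Acta2, Tagln and Cnn1 values was not tested. Srf itself stood at 7.58 FPKM in Lgr5+ cells, 10.4 in Lgr5− cells and 13.7 in Sox9+ cells.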
